A study of Arabidopsis thaliana with 8 samples.

Results

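The wild-type accession Col-0 of Arabidopsis thaliana was described here from RNA-seq of whole seedlings at 5 days of age. The libraries were chosen by genotype alone, which gave the 3 labelled Col-0 among the 8 of the series, and no genotype was compared with another. The other libraries are 2 of a line overexpressing MIR394A (MIR394A_OE) and 3 of bin2-1, in a study of the microRNA miR394 and brassinosteroid signalling. Per the labels, Col-0 seeds spent 4 days in the cold at 4 °C and seedlings then grew at 22 °C under 16 h of light and 8 h of darkness, with no transgene and no hormone or drug named. Total RNA came from an RNeasy Plant Mini kit and libraries from a TrueSeq RNA kit. Nothing in the labels says that the replicates came from separate sowings, so the spread between them may be partly technical.

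A seedling of this age has opened its cotyledons and lives mainly from its own photosynthesis, while the root grows and the first leaves form at the shoot apex. Most chloroplast proteins are encoded in the nucleus, made in the cytosol and imported. Among them the small subunit of Rubisco, the enzyme that fixes carbon dioxide, and the chlorophyll-binding antenna proteins are known for abundant transcripts in green tissue.

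Levels are FPKM, fragments scaled to the length of the transcript and to the number of mapped fragments in the library, as the authors deposited them, so that genes can be compared per length. Values of a gene are given for replicates 1, 2 and 3 in turn, and a mean ± SD is over these 3 libraries. The table listed 22951 genes, of which 20987 were above 0 in all 3 libraries and 143 were at 0 in all 3. The depth, estimated from the steps between low values, was 9.68 to 11.1 M reads per library, so 3 reads on 1 kb of transcript are worth 0.271 to 0.310 FPKM. Means reached at least 1 FPKM for 18632 genes, 10 FPKM for 9952, 100 FPKM for 1349 and 1000 FPKM for 58, and the median gene had 7.54 FPKM.

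Transcripts were concentrated in few genes. The 10 highest genes of a library held 8.63% to 9.13% of its summed FPKM, the 100 highest 23.7% to 24.7% and the 1000 highest 55.02% to 56.8%. The number of genes that made up 50% of the sum was 736, 738 and 667 in replicates 1, 2 and 3.

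Rubisco small subunit genes led the transcriptome. RBCS3B (AT5G38410) had 11618, 11634 and 12333 FPKM and a mean of 11862 ± 408. RBCS1A (AT1G67090) followed with 10718, 10658 and 12909 FPKM, a mean of 11428 ± 1283. The means of both genes differed by less than the SD of RBCS1A, so their order is not settled by these libraries. RBCS2B (AT5G38420) stood at rank 8 with 3593 ± 124 FPKM and RBCS1B (AT5G38430) at rank 14 with 2638 ± 118, and both lay below RBCS3B and RBCS1A in every library. RCA, the activase that frees Rubisco of bound sugar phosphates, had 3039 ± 152 FPKM.

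The 4 small subunit genes are near copies, which bears on how reads were divided among them. On TAIR10.1, RBCS1A lies on chromosome 1 and the other genes lie side by side on chromosome 5. Of all positions in the aligned coding sequences, gaps counted as differences, RBCS1B and RBCS2B shared 97.3%. RBCS3B, whose coding sequence is longer (561 bases against 546), shared 94.1% with RBCS1B and 94.3% with RBCS2B. RBCS1A shared 87.7% to 90.11% with the others. A stretch of 90 bases at the same place in each coding sequence (RefSeq, TAIR10.1) shows where reads can tell them apart. Capitals mark bases that differ from RBCS1A, 9 in RBCS1B, 11 in RBCS2B and 9 in RBCS3B.
RBCS1A: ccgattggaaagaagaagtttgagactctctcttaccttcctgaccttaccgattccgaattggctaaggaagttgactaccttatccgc
RBCS1B: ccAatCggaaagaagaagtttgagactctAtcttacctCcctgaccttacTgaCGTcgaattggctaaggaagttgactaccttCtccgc
RBCS2B: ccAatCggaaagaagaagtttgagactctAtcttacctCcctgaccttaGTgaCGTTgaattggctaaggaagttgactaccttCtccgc
RBCS3B: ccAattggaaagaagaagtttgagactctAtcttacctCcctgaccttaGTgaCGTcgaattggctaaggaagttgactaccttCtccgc
How the authors assigned reads that match several of these genes is not given in the sources used here, so the separate levels of RBCS1B, RBCS2B and RBCS3B are uncertain.

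Light-harvesting and photosystem genes filled most of the next ranks. CAB1 (AT1G29930), an antenna protein of photosystem II of the LHCB1 type, had 9047, 7701 and 9695 FPKM, and its near copies CAB2 and CAB3 had means of 2176 ± 272 and 2126 ± 328. CAB1, CAB2 and CAB3 shared 95.6% to 96.4% of coding bases, so their split is uncertain too. LHB1B2, a further LHCB1 gene, had 4783 ± 681 FPKM. PSBR, a small protein of the oxygen-evolving side of photosystem II, followed at rank 4 with 8274, 7709 and 7577 FPKM. PSBO1, the manganese-stabilising protein of the same complex, had 3194 ± 415 FPKM against 621 ± 55.9 for its paralog PSBO2. LHCA1, an antenna protein of photosystem I, had 3450.2 ± 408 FPKM. PSAD-1, a subunit at the ferredoxin docking site, led the photosystem I list with 2554 ± 309.8 FPKM and PSAE-2 ended it with 483 ± 11.8. PSBY was the lowest photosystem II gene with 387 ± 76.2 FPKM. Completing the 20 highest genes were PSBTN and PSBP-1 of photosystem II with 3195 ± 102 and 2598 ± 253 FPKM, the antenna genes LHCB3 and LHCA2 with 2521 ± 509 and 2284 ± 262, and PSAG of photosystem I with 2201 ± 206.

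**Figure D1:**
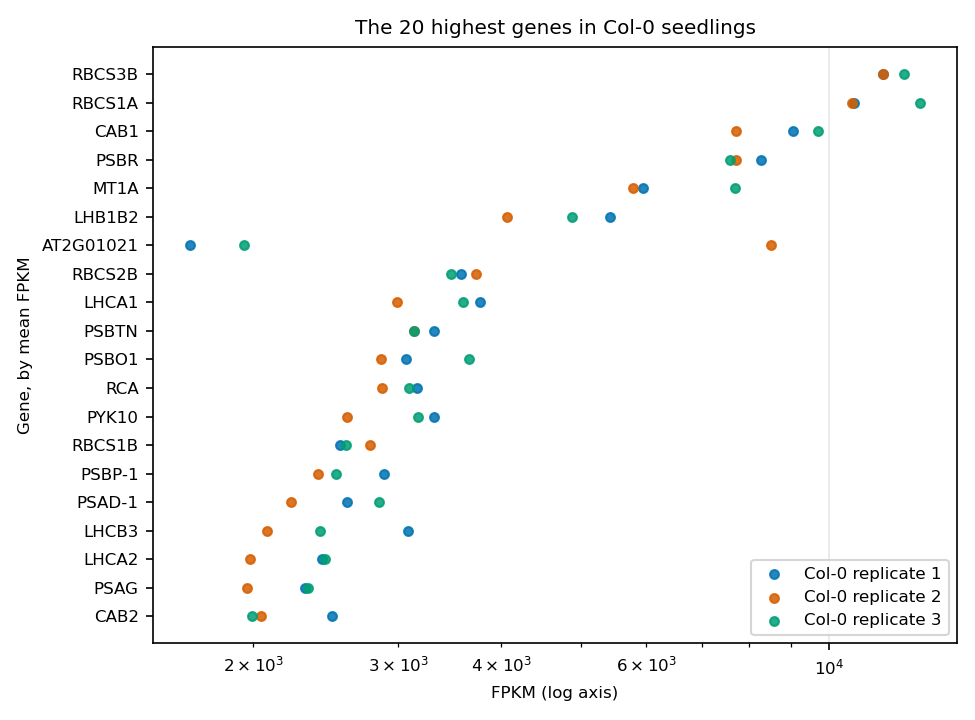
FPKM (log axis) of the 20 genes with the highest mean, in order of the mean, with 1 point for each Col-0 library. Points of a gene lie close together except for AT2G01021, where replicate 2 stands at 8498 FPKM and the other libraries at 1674 and 1951.

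Of the 20 highest genes, 17 belonged to 5 lists of nuclear photosynthesis genes (antenna, photosystem I, photosystem II, electron carriers with ATP synthase, Calvin cycle), as did 35 of the 60 highest. The 69 members of these lists held 17.7%, 15.4% and 17.1% of the summed FPKM in replicates 1, 2 and 3, a mean of 16.8% ± 1.19. Each of the 69 had a mean above 20 FPKM. None of them was more than 2-fold apart between its lowest and highest library on the scale of FPKM + 1, against 8.22% of the 13530 genes whose mean reached 5 FPKM. The antenna list was lowest in replicate 2 for 17 of its 20 members, beside 25.1% of all genes tested, and the share of the sum it held was 5.54%, 4.29% and 5.17%.

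The libraries lay closer together for Calvin cycle genes than for the antenna, though no test of that difference was made. The 17 Calvin cycle members held 5.42% ± 0.176 of the sum, with a median fold between lowest and highest library of 1.09, against 1.35 for the antenna and 1.29 for all genes with at least 5 FPKM. GAPA and GAPB, the subunits of the chloroplast glyceraldehyde-phosphate dehydrogenase, had 992, 957 and 1001 FPKM for GAPA and 909.7, 929.6 and 949 FPKM for GAPB. FBA2, a plastid aldolase, had 1721, 1813 and 1830.5 FPKM. The lowest member, HCEF1, the plastid fructose-bisphosphatase, still had 312 ± 7.36 FPKM. In the antenna list, LHCB4.3 had 29.3 ± 2.49 FPKM, while its relatives LHCB4.1 and LHCB4.2 had 1643 ± 152 and 669 ± 158.

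Photorespiration, which salvages the product of the oxygenation reaction of Rubisco across chloroplast, peroxisome and mitochondrion, had a median level of 482 FPKM. Of its members 11 of 11 were within 2-fold, which over so few genes is near the 8.22% of all genes past it. Here replicate 3 was lowest for 9 of the 11, beside 42.1% of all genes tested. AGT, the peroxisomal serine aminotransferase, had 1135 ± 112 FPKM and SHM1, the mitochondrial serine hydroxymethyltransferase, 1026 ± 112. PGLP1, the phosphatase that opens the pathway, was lowest with 154 ± 14.2 FPKM. The highest electron carrier was plastocyanin DRT112 with 2106 ± 292 FPKM, and its paralog PETE1 had 142 ± 23.4.

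The promoter of RBCS2B is shown because it is the highest photosynthesis gene whose 250 bases before the annotated start hold both a G-box (CACGTG) and an I-box (GATAAG), a pair of elements long known from light-responsive promoters. The window is chr5:15382072-15382321 on the minus strand (RefSeq, TAIR10.1), with matches on either strand in capitals.
RBCS2B: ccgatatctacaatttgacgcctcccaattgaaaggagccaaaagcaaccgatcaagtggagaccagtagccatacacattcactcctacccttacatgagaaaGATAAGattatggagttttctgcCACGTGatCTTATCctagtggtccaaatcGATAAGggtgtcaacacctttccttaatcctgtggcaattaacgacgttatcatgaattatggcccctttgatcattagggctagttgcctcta
The G-box begins 123 bases before the start and the I-boxes 146, 115 and 94 bases before it. Searched on both strands, the G-box was found in 18.8% of the 69 photosynthesis promoters and in 7.24% of 22794 promoters of that length, and the I-box in 23.2% and 12.3%. A match is a description of letters and no evidence of binding.

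Outside photosynthesis, few genes reached the same levels. MT1A, a metallothionein, which is a small metal-binding protein, had 5938, 5781 and 7695 FPKM, and 7 metallothionein genes held 1.31% of the sum. PYK10 (AT3G09260), a beta-glucosidase of the endoplasmic reticulum bodies of root and seedling epidermis, had 3317, 2599.8 and 3168 FPKM. TGG1, a myrosinase that cleaves glucosinolates in myrosin cells and guard cells, had 1317 ± 152 FPKM. Cell wall-associated glycine-rich proteins GRP3S and GRP-3 had 1912 ± 289 and 1180.5 ± 84.8 FPKM.

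Ribosomal protein genes held the largest share of any family counted by product name. Their 343 genes made up 7.08%, 7.29% and 7.79% of the summed FPKM, with a median level of 113 FPKM. None of the 314 with at least 5 FPKM was more than 2-fold apart between libraries. The same held for 23 proteasome subunits, 15 tubulins and 6 metallothioneins at that level, beside 8.22% of all genes. With a pseudocount of 0.1 FPKM 2 ribosomal protein genes were past 2-fold, and 1 after scaling by the median of ratios.

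**Figure D2:**
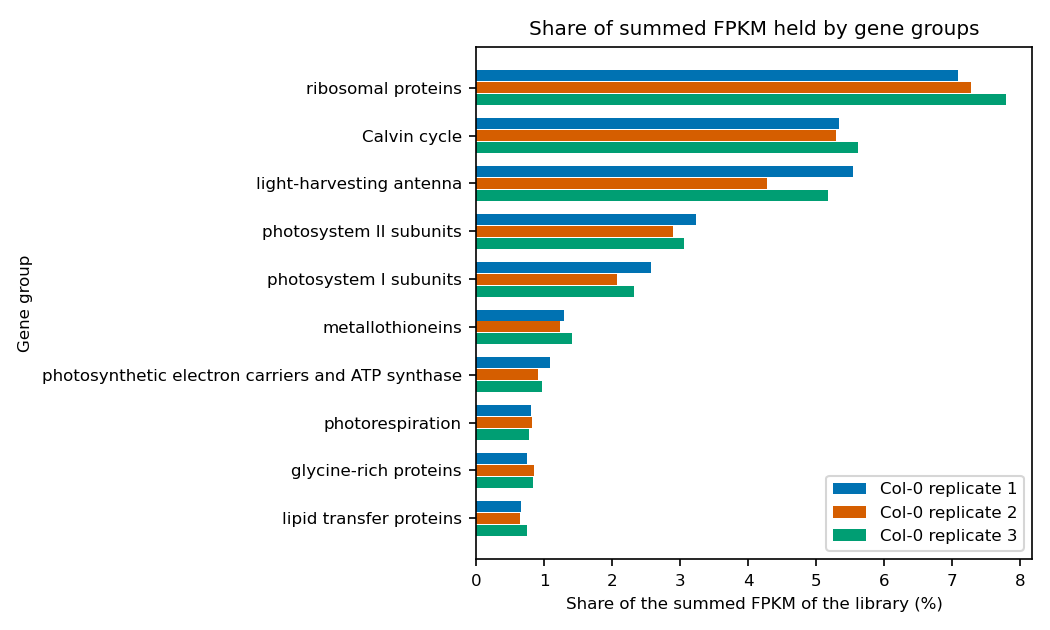
Share of the summed FPKM (%) held by 10 gene groups, as bars from 0 for each Col-0 library. Ribosomal proteins lie between 7.08% and 7.79%, and the antenna is the group with the clearest dip in replicate 2, at 4.29% against 5.17% and 5.54%.

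AT2G01021 was the exception among the highest genes. It had 1674, 8498 and 1951 FPKM, so replicate 2 was far above both other libraries. The gene is annotated as an uncharacterized protein of 102 coding bases at chr2:6571-6672 on the plus strand (TAIR10.1), 625 bases past the end of AT2G01020, an annotated ribosomal RNA gene. Its sequence is shown because it decides how the value is read, and capitals are not used in it.
AT2G01021: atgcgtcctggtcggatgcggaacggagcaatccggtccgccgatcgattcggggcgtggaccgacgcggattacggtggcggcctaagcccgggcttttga
These letters occur at 2 places in the genome and lie wholly in the 45S ribosomal DNA repeat, with a GC content of 65.7%. Reads of ribosomal RNA cannot be told apart from reads of this gene. Genes like the ribosomal DNA made up 0.223%, 1.13% and 0.259% of the summed FPKM. With them and organelle-like genes left out of the sum, the antenna held 5.55%, 4.34% and 5.19%, against 5.54%, 4.29% and 5.17% with them. The mean level of AT2G01021 was 1813 FPKM without replicate 2.

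Markers of shoot and of root tissues were both measured in these libraries, which are labelled as whole seedlings. Epidermis and cuticle genes had the highest median among tissue lists, 99.6 FPKM over 9 genes. LP1, a lipid transfer protein of the epidermis, had 606 ± 88.3 FPKM, ATML1, a factor that specifies epidermal identity, 36.2 ± 2.59, and CER3, a wax synthesis protein, 21.0 ± 0.95. In bulk RNA, fewer cells of a type and less RNA per cell cannot be told apart, so these levels are not counts of cells.

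Vascular genes lay lower. The phloem list had a median of 29.1 FPKM, led by PP2-A1, a lectin of phloem sap, with 154 ± 32.3 FPKM, and SUC2, the sucrose loader of companion cells, had 44.5, 46.6 and 48.8. The xylem list had a median of 8.61 FPKM. XCP2 and XCP1, proteases of dying vessel cells, had 60.6 ± 2.71 and 58.2 ± 7.32 FPKM, and the secondary wall cellulose synthases CESA4, IRX3 and IRX1 had 8.61 ± 1.13, 5.79 ± 0.114 and 4.63 ± 0.17. VND7 and its relative NAC101 (VND6), switches of vessel fate, had 2.30, 0.97 and 1.01 for VND7 and 1.29, 1.57 and 0.87 for NAC101, and CalS7, a callose synthase of sieve plates, was the lowest phloem gene with 1.36, 0.72 and 0.75.

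Root genes spanned a wide range. The root tip, endodermis and cap list had a median of 6.78 FPKM, and ESB1, needed to lay down the Casparian strip, led it with 30.9 ± 1.90 FPKM. CASP1, a scaffold protein of that strip, had 15.9, 16.1 and 17.97 FPKM and SCR, a patterning factor of the endodermis, 13.9, 15.4 and 14.2, while PLT2 of the stem cell niche was lowest with 0.95, 0.61 and 1.09. WOX5, active in the few cells of the quiescent centre, had 1.22, 1.11 and 1.11 FPKM, above the level of 3 reads on 1 kb in each library. Root hair genes had a median of 4.42 FPKM, from RSL2 with 1.06 ± 0.367 to PRP3, a proline-rich wall protein, with 64.3 ± 22.9. The nutrient transporters had a higher median of 35.3 FPKM. NRT1.1 for nitrate had 70.7 ± 12.1 FPKM and PHO1, which loads phosphate into the xylem, 35.3 ± 2.07, while NRT2:1, a high-affinity nitrate transporter, had 0.23, 0.16 and 0.38, near the worth of 3 reads on 1 kb. PHT1;1 for phosphate and AMT1;2 for ammonium had 28.8, 52.0 and 70.8 for PHT1;1 and 10.2, 7.62 and 17.7 for AMT1;2.

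Of genes of small cell populations in the shoot, the stomatal lineage had a median of 6.76 FPKM. Here ER, a receptor kinase that spaces stomata, was highest with 18.9 ± 0.674 FPKM and BASL, a polarity protein, lowest with 0.75 ± 0.182. SPCH, which starts the lineage, had 7.64, 6.38 and 7.66 FPKM, MUTE, which ends its amplifying divisions, 0.88, 0.76 and 0.9, and FMA, which completes guard cells, 12.8, 12.2 and 11.1. Levels of the guard cell list ran from OZS1, an anion channel, with 1.93 ± 0.681 to ALMT12, another anion channel, with 13.2 ± 1.09 FPKM. Among meristem and boundary genes, AS1, a factor of leaf founder cells, had 25.2 ± 2.26 FPKM, STM, which keeps meristem cells from forming organs, 2.34 ± 0.344, and CLV3, the peptide of the stem cells, 0, 0 and 0.18. WUS was not among the listed genes. In the trichome and epidermal fate list, TTG1 led with 21.1 ± 3.31 FPKM and TRY was lowest with 0.78 ± 0.412.

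Seed storage and embryo genes had a median of 0.843 FPKM, and none reached a mean of 5 FPKM. CRA1, the 12S storage protein cruciferin, was highest with 2.41, 7.41 and 0.6 FPKM and FUS3, an embryo regulator, lowest with 0, 0.07 and 0. CRA1, OLEO2, an oil body protein, with 1.87, 3.45 and 0.42 and GEA6, a late embryo protein, with 1.52, 3.64 and 0.15 FPKM were each highest in replicate 2 and lowest in replicate 3. Lipid mobilisation genes lay far higher, with a median of 28.7 FPKM and 6 of 6 members at 5 FPKM or above. ICL, the isocitrate lyase of the glyoxylate cycle, had 3.09, 11.2 and 4.09 FPKM and was also highest in replicate 2, while PKT3, a thiolase of beta-oxidation, had 156 ± 18.9 and MLS, malate synthase, 5.12, 7.87 and 4.90.

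Flower genes had a median of 0.51 FPKM. The floral identity genes LFY, AP1 and SEP2 had means of 0.05, 0.0233 and 0.02 FPKM and the flowering signal FT 0.21, 0.61 and 0.54. SVP, a repressor of flowering active in seedlings, was highest in the list with 32.1, 18.23 and 15.5 FPKM, and FLC, the vernalisation-controlled repressor, had 3.81, 4.13 and 3.66. VGD1, a pollen gene, had 0.04, 0 and 0 FPKM, under the level of 3 reads on 1 kb.

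**Figure D3:**
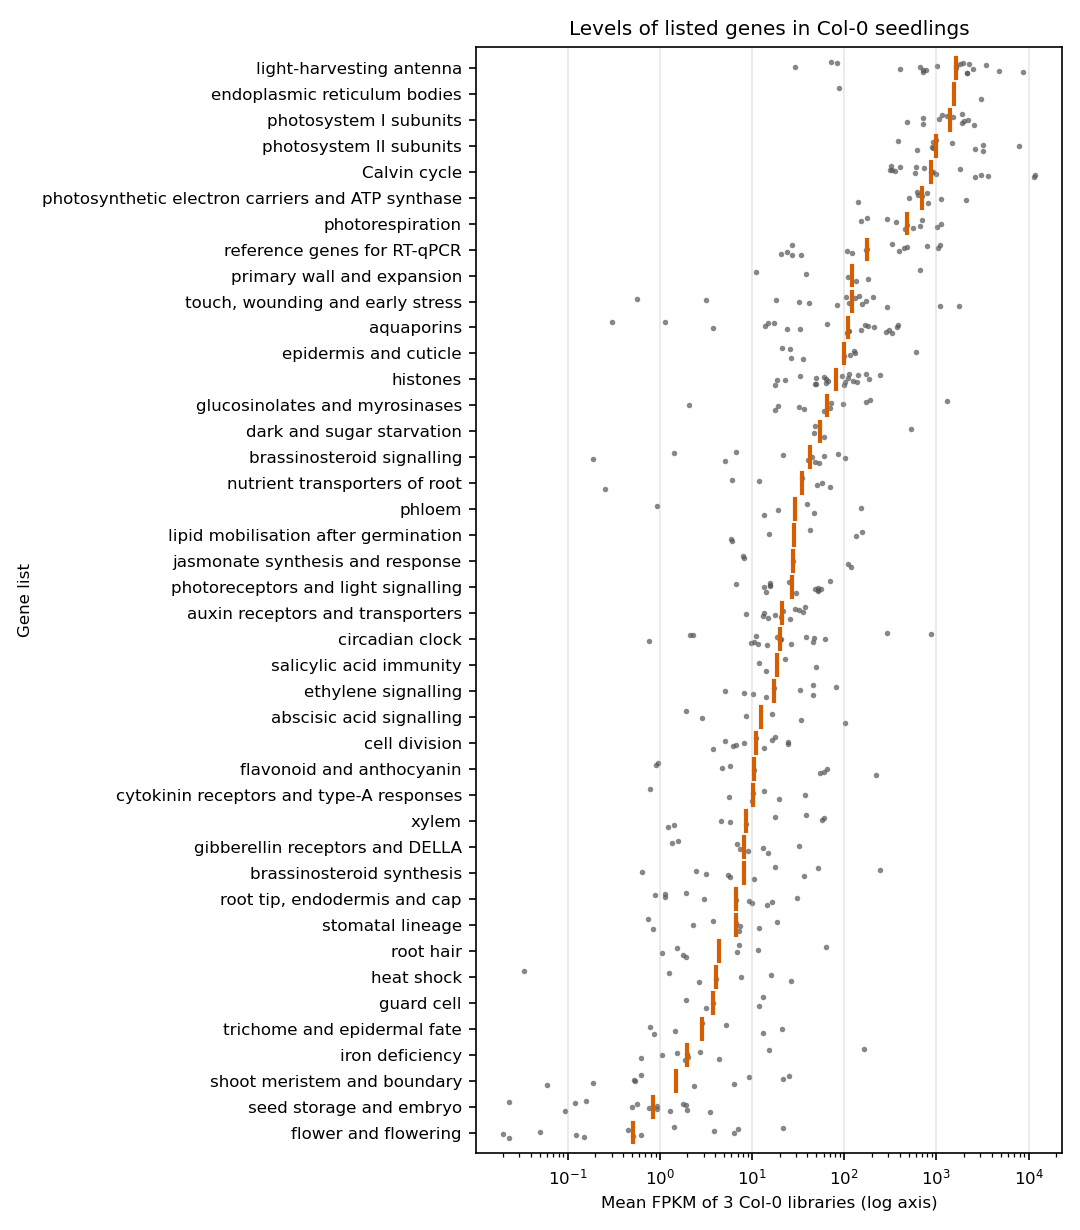
Mean FPKM over 3 Col-0 libraries (log axis) of each listed gene, with 1 point per gene and an orange bar at the median of its list, lists being ordered by the median. Medians run from 1638 FPKM in the antenna list to 0.51 FPKM in the flower list, and several lists hold members more than 100-fold apart.

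Brassinosteroid genes, the subject of the series, spanned a wide range in wild type. Brassinosteroids bind the receptor kinase BRI1 and its partner BAK1, and the signal turns off the kinase BIN2, which otherwise restrains the factors BZR1 and BES1. BRI1 had 46.3, 63.8 and 51.7 FPKM and BAK1 35.0, 57.4 and 53.4. BIN2 (AT4G18710) had 94.1, 102 and 111 FPKM, rank 1311, above its relatives GSK1 with 44.4 ± 1.34 and SKdZeta with 60.3 ± 7.13. BES1 had 84.7 ± 9.69 FPKM and BZR1 22.0 ± 1.87, with no overlap between their libraries. The phosphatase BSU1 was lowest in the list with 0.19, 0.22 and 0.16 FPKM, and CDG1 was not among the listed genes. None of the 10 signalling genes and 7 synthesis genes with at least 5 FPKM passed 2-fold, which over so few genes is near the 8.22% of all genes. In synthesis, DWF1, an early sterol enzyme, had 246 ± 15.2 FPKM, DWF4, the 22-hydroxylase that limits the pathway, 5.79 ± 0.203 and BR6OX1, an enzyme of the last steps, 1.24, 0.4 and 0.31. The transcript of LCR (AT1G27340), which encodes an F-box protein, is cut under the guidance of miR394. It had 19.6, 19.6 and 23.9 FPKM, rank 5888.

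Receptors and carriers of other hormones were mostly between 5 and 100 FPKM. Auxin receptors and transporters had a median of 21.2 FPKM and all 12 exceeded 5 FPKM, the highest being ABCB19, a carrier of auxin out of cells, with 37.5 ± 6.10. PIN7, another carrier of auxin out of cells, stood high in replicate 1 with 49.0, 21.4 and 25.9 FPKM. In the gibberellin list, RGA1, a DELLA growth repressor, had 32.0 ± 0.609 FPKM and RGL2 1.35 ± 0.213, while the receptor GID1B had 4.25, 8.51 and 14.5. In the ethylene list EIN3, the main transcription factor, was highest with 80.7 ± 9.46 FPKM and the receptor ERS2 lowest with 5.06 ± 0.916, and the receptor ETR2 was low in replicate 1 with 4.84, 11.2 and 14.5. The abscisic acid receptor PYR1 had 102 ± 11.8 FPKM and ABI5, a factor of seeds and germination, 1.08, 3.36 and 1.36. The cytokinin receptors HK3, HK2 and WOL had 19.6 ± 3.38, 10.05 ± 2.47 and 5.64 ± 1.66 FPKM, and of the response regulators ARR4 had 26.4, 31.3 and 54.5 and ARR15 0.45, 0.85 and 1.05.

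Light signalling and aquaporin genes were well above the median gene. Among photoreceptors PHOT1 had 74.3, 54.1 and 39.8 FPKM, CRY2 52.4 ± 4.42, CRY1 51.4 ± 0.942, UVR8 52.3 ± 4.01, PHYA 29.9 ± 1.31 and PHYB 14.4 ± 1.38. PIL6, known as PIF5, was the highest of the list with 70.2 ± 9.02 FPKM and PIL5, known as PIF1, the lowest with 10.7, 4.83 and 4.61. Aquaporins, the water channels of plasma membrane and vacuole, had a median of 109.5 FPKM. Of those with at least 5 FPKM, 18 of 18 were within 2-fold, which over so few genes is near the 8.22% of all genes past it. TIP2 led with 385 ± 45.6 FPKM, followed by the plasma membrane type PIP3 with 378 ± 42.5, while the seed-type BETA-TIP had 0.38, 0.44 and 0.08. Among flavonoid genes TT4, chalcone synthase, had 222 ± 22.8 FPKM and the anthocyanin enzyme UF3GT 0.903 ± 0.256.

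Of 10 cell division genes at 5 FPKM or above, each was highest in replicate 1, as were 43.8% of all genes tested. None was past 2-fold, near the 8.22% of all genes at this number. CDKB2;1, a mitotic kinase, had 24.8 ± 3.84 FPKM and CYCB1;1, a mitotic cyclin, 3.82 ± 1.37. The 22 histone genes had a median of 81.7 FPKM, the lowest being AT1G07660, an H4 gene, with 17.7 ± 2.00 and the highest HTB4, an H2B gene, with 246 ± 12.2, and RAT5, an H2A gene, was the only one past 2-fold with 19.4, 35.1 and 44.9, beside 8.22% of all genes. Histone genes of 1 type are near copies, so their single levels are uncertain.

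Genes of heat stress and iron shortage had low medians. Heat shock genes had a median of 4.11 FPKM, HSP70 being highest with 26.7 ± 4.14 and HSP21, a small plastid chaperone, lowest with 0, 0 and 0.1. Iron deficiency genes had a median of 1.99 FPKM, with bHLH38, a factor that switches on iron uptake, at 0.4, 0.68 and 0.8. FER1, a ferritin that stores iron in plastids, stood far above them with 188, 124 and 179 FPKM. In the endoplasmic reticulum body list NAI2, which shapes these bodies, had 137, 73.7 and 50.5 FPKM beside the abundant PYK10. Among genes of the primary wall and cell expansion, XTH4, which rejoins xyloglucan, was highest with 461, 748 and 775 FPKM and EXPA5, an expansin, lowest with 10.6, 8.57 and 13.8.

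Of the 13530 genes whose mean reached 5 FPKM, 1112 (8.22%) were more than 2-fold apart between their lowest and highest library, 97 more than 5-fold and 17 more than 10-fold. The median SD of log2(FPKM + 1) was 0.19, against 0.07 from counting error at the estimated depth. The share past 2-fold was 9.61% at 5 to 10 FPKM and 7.26% at 100 FPKM and above, so it changed little with level. Of the genes past 2-fold, replicate 1 was the library farthest from the one of middle level for 57.7%, replicate 3 for 33.6% and replicate 2 for 8.63%. Replicates 1 and 3 were over 2-fold apart for 884 genes, 572 higher in replicate 1 (4.23% of those tested) and 312 lower (2.31%). Replicates 1 and 2 were so for 454 (206 or 1.52% higher in replicate 1, 248 or 1.83% lower) and replicates 2 and 3 for 272 (227 or 1.68% higher in replicate 2, 45 or 0.333% lower). Without replicate 1 the count past 2-fold was 259, without replicate 2 it was 898 and without replicate 3 it was 471. Of the 13530 genes, chosen by the mean of 3 libraries, 2.01%, 6.53% and 3.36% were over 2-fold between the 2 libraries left, in the same order. For a fixed set of genes the ratio over 2 libraries cannot exceed that over 3. That these shares do not pass 8.22% was therefore fixed in advance and is no result. Across the 13530 genes Pearson's r of log2(FPKM + 1) was 0.96, 0.94 and 0.97 for these pairs (1 with 2, 1 with 3, 2 with 3), a description over genes, which are not independent replicates.

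By pattern, replicate 1 stood high for 341 of the genes past 2-fold (2.52% of those tested) and low for 301 (2.22%), and replicate 3 stood low for 304 (2.25%) and high for 70 (0.517%). Replicate 2 stood high for 67 (0.495%) and low for 29 (0.214%). Replicates 1 and 3 were at the ends for 69.8% of the genes past 2-fold, against 49.9% of those tested. With replicate 1 highest, replicate 2 between and replicate 3 lowest were 48.3% of the genes past 2-fold. Genes in this order count as high in replicate 1 or low in replicate 3 by which gap is larger, so these 2 patterns grade into each other. Whatever the fold, replicate 1 was the highest library for 43.8% of the genes tested, replicate 2 for 25% and replicate 3 for 31.2%, and the lowest for 32.8%, 25.1% and 42.1% in the same order. The factors for scaling by the median of ratios were 1.04, 1.00 and 0.961 for replicates 1, 2 and 3. Deposited values of a typical gene thus ran slightly higher in replicate 1 and lower in replicate 3. The shares, counts and orders given here do not allow for this. Each gene was read against genes of like level too, by a running median of the SD over neighbouring genes in order of level. The SD was more than 3 times this median for 861 genes.

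**Figure D4:**
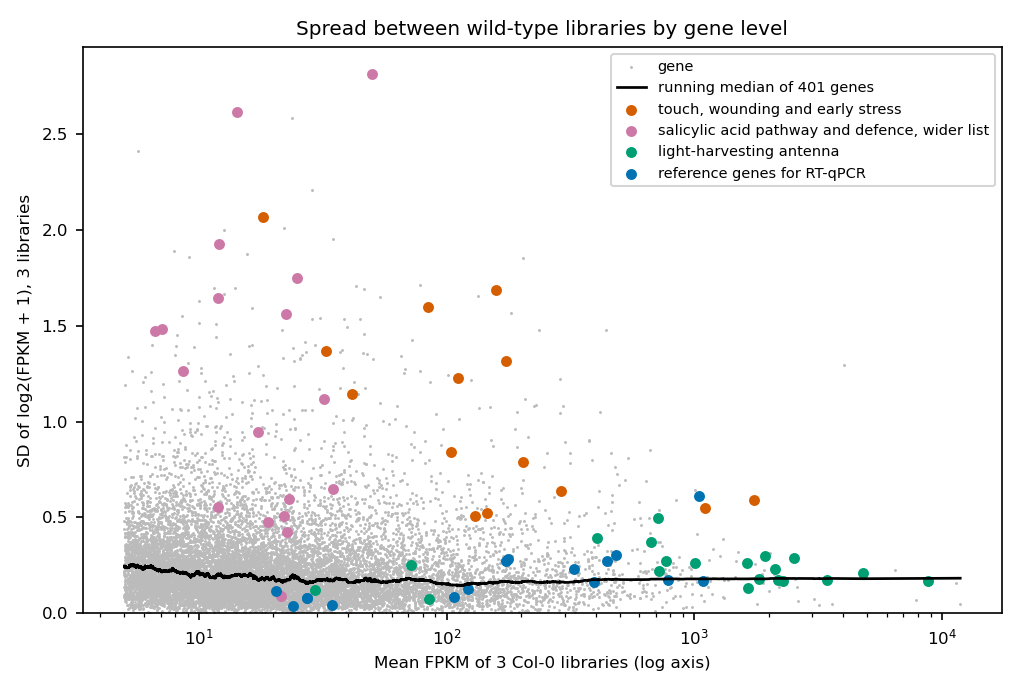
SD of log2(FPKM + 1) over the 3 Col-0 libraries against mean FPKM (log axis) for each gene with at least 5 FPKM, with the running median over neighbouring genes in black and 4 gene lists coloured. Most early stress and salicylic acid genes rise far above the median of 0.19. The antenna list has a median of 0.226, a little above it, and the reference genes have one of 0.166, with UBQ10 the exception among them at 0.61.

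Touch, wounding and early stress genes were the list with the largest share past 2-fold among those with more than 4 genes at 5 FPKM or above, 13 of 14 beside the 8.22% of all genes. WRKY33, a factor of responses to fungi and of camalexin synthesis, had 337, 105 and 31.6 FPKM. WRKY40, a repressor in immune and abscisic acid signalling, had 174, 60.9 and 18.23, and the zinc-finger repressors STZ (ZAT10) and RHL41 (ZAT12) had 224, 69.5 and 41.8 for STZ and 79.7, 29.6 and 15.8 for RHL41. All 4 were highest in replicate 1 and lowest in replicate 3. ERF5 and ERF6, ethylene response factors induced by chitin and osmotic stress, had 72.04, 13.2 and 13.0 for ERF5 and 326, 142 and 52.1 for ERF6. CBF2, a cold-response factor, had 48.1, 3.79 and 2.62 FPKM, and its low relatives CBF1 and DREB1A (CBF3) had 9.24, 0.37 and 0 for CBF1 and 1.60, 0.11 and 0 for DREB1A. CZF1, a tandem zinc-finger protein, had 169, 91.8 and 51.8 FPKM, and MYBR1 (MYB44), a repressor linked to abscisic acid, 264, 248 and 99.2.

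Of the classical touch genes of this list, 2 peaked in another library. TCH3, a calmodulin-like protein, had 1122, 2532 and 1578 FPKM and TCH4, a xyloglucan endotransglucosylase, 913, 1618 and 789, both highest in replicate 2. TCH2, a calmodulin-like protein, had 367, 336 and 163 FPKM and the same order of libraries as WRKY33, and was low in replicate 3, as was JAZ1, a jasmonate repressor, with 148, 194 and 94.4. DREB26 had 144, 163 and 83.7 FPKM and was just under 2-fold. Of the 14, 10 were highest in replicate 1, 4 in replicate 2, and 13 were lowest in replicate 3, beside 43.8% of all genes tested that were highest in replicate 1 and 42.1% that were lowest in replicate 3. Without replicate 1 the list had 7 genes past 2-fold, without replicate 2 it had 10, without replicate 3 it had 8, and scaling by the median of ratios gave 11. Of all genes, 2.01%, 6.53% and 3.36% were over 2-fold without replicates 1, 2 and 3.

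Families of transcription factors and calcium sensors known from stress held more genes past 2-fold than the 8.22% of all genes, though not all in 1 direction. They were drawn up after values were seen. Similar shares were found in families of other kinds, 24.1% of cytochromes P450, 24.1% of lipid transfer proteins and 24.4% of peroxidases, beside 24.2% of WRKY factors, 24.4% of calmodulin-like proteins and 26.8% of AP2/ERF-type factors. Of AP2/ERF-type factors with at least 5 FPKM, 15 of 56 were past 2-fold, of which 6 were high in replicate 1, 5 low in replicate 1 and 4 low in replicate 3. AT5G51190 stood at 439, 140.0 and 32.95 FPKM, ERF104 at 421, 66.3 and 61.0 and ERF13 at 27.9, 8.09 and 1.87. Of WRKY factors 8 of 33 were past 2-fold and 6 of these were low in replicate 3, with WRKY46 at 41.6, 18.7 and 4.61 FPKM, while WRKY15 had 90.7, 91.9 and 83.7. Of calmodulin-like and other EF-hand proteins matched by product name, 10 of 41 were past 2-fold and 7 of these were low in replicate 3. They were led by AT3G29000 with 45.2, 19.1 and 2.06 and AT4G27280 with 677, 544 and 103. The match by name missed TCH2 and TCH3, both past 2-fold and TCH3 highest in replicate 2. Among AP2/ERF-type factors it missed RRTF1 with 15.9, 6.77 and 2.16 FPKM, so these counts do not cover whole families. Without replicate 1 the counts of AP2/ERF-type, WRKY and calmodulin-like genes were 4, 6 and 7, and without replicate 3 they were 10, 4 and 5. The shares of all genes were then 2.01% and 3.36%. Further genes among the 20 most variable were highest in replicate 1 and lowest in replicate 3. They were ACS6, which makes the ethylene precursor, with 102, 17.8 and 9.60 FPKM, CYP707A3, which breaks down abscisic acid, with 145, 75.4 and 13.7, NUDT21, a nudix hydrolase, with 106, 23.9 and 9.59, EXPA8, an expansin, with 34.2, 5.02 and 2.80 and AT4G27652, an uncharacterized protein, with 36.5, 8.76 and 1.81.

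Promoters of genes of this kind are shown with 2 elements in capitals, the CGCGTT core of the rapid stress response element and the W box (TTGACC or TTGACT), bound by calmodulin-binding activators and WRKY factors in Arabidopsis. WRKY33 and CBF2 were taken as members of the early stress list, and PP2-B14 and PS2 as the genes low in replicate 3 with the largest fold among those with CGCGTT. Each window is the 250 bases before the annotated start (RefSeq, TAIR10.1), at chr2:16107985-16108234 on the plus strand for WRKY33, and on the minus strand at chr4:13016236-13016485 for CBF2, chr1:21063048-21063297 for PP2-B14 and chr1:27466349-27466598 for PS2.
WRKY33: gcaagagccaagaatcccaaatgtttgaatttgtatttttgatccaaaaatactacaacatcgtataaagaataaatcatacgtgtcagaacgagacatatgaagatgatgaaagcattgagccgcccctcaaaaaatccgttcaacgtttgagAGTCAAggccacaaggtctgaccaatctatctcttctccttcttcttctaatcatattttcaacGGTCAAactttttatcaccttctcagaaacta
CBF2: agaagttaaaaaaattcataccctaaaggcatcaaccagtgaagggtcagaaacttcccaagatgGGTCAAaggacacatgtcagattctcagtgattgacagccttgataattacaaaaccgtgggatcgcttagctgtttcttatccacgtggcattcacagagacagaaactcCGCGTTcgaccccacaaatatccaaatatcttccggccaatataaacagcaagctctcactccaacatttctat
PP2-B14: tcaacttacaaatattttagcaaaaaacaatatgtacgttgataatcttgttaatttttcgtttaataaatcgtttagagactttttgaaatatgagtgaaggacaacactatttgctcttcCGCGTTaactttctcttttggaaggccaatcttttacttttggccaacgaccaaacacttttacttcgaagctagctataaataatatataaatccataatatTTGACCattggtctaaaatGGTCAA
PS2: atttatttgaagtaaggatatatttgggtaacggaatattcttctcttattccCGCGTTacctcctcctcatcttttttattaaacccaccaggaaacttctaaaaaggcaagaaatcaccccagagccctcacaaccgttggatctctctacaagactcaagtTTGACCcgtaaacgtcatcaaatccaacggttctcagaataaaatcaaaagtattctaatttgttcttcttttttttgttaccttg
WRKY33 held W boxes 96 and 32 bases before its start and no CGCGTT in this window, and CBF2 held CGCGTT 74 bases before. PP2-B14, a phloem lectin gene, had 20.4, 12.8 and 1.92 FPKM and PS2 (AT1G73010), an inorganic pyrophosphatase gene, 53.2, 28.0 and 7.06. Searched on both strands, CGCGTT was found in 19 of 302 promoters of genes low in replicate 3 (6.29%), in 5 of 65 of genes high in replicate 2 (7.69%), in 12 of 299 of genes low in replicate 1 (4.01%), in 10 of 340 of genes high in replicate 1 (2.94%), and in 2.78% of 22794 promoters of that length. It was in none of 27 of genes low in replicate 2 and none of 70 of genes high in replicate 3. The W box was found in 34.8% of promoters of genes low in replicate 3, 41.5% of those high in replicate 2, 32.1% of those low in replicate 1, 32.4% of those high in replicate 1, 22.2% of those low in replicate 2, 28.6% of those high in replicate 3 and 28.5% of all. No test was made of these shares.

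Salicylic acid genes were instead lowest in replicate 1. PR1 (AT2G14610), the common marker of salicylic acid immunity, was listed at 0 in replicate 1 and had 36.0 and 6.70 FPKM in replicates 2 and 3. BGL2 (AT3G57260), a secreted glucanase also called PR2, had 1.58, 73.6 and 75.2 FPKM and the largest SD of log2(FPKM + 1) of all genes at 5 FPKM or above. Replicate 1 was lowest for both, and the other libraries lay close together for BGL2 but not for PR1. PR5, a thaumatin-like protein, had 7.28, 16.8 and 11.9 FPKM and EDS16, the isochorismate synthase that makes salicylic acid, 14.1, 33.4 and 21.6. All 4 genes of the list were past 2-fold and lowest in replicate 1, beside 8.22% and 32.8% of all genes tested. The count past 2-fold was 1 without replicate 1 and 1 without replicate 2, beside 2.01% and 6.53% of all genes.

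A wider list of 22 genes of this pathway, drawn up after these values were seen, held genes of several patterns. PBS3, which conjugates isochorismate on the way to salicylic acid, had 1.52, 18.3 and 16.0 FPKM, and AIG1, LURP1 and SAG13, genes induced in defence and senescence, had 3.50, 36.9 and 34.5 for AIG1, 4.09, 39.1 and 24.0 for LURP1 and 0.86, 17.2 and 18.3 for SAG13. The camalexin enzymes PAD3 and CYP71A13 had 1.93, 9.05 and 15.0 for PAD3 and 0.89, 9.16 and 11.2 for CYP71A13. These 6 genes, named after their values were seen, were all lowest in replicate 1. Of the 18 genes of the list at 5 FPKM or above, 12 were lowest there and 6 in replicate 3. Of all genes tested, 32.8% and 42.1% were. The regulators EDS1 and PAD4, upstream partners in immune signalling, had 23.6, 28.4 and 13.9 for EDS1 and 21.1, 30.4 and 16.5 for PAD4 and were lowest in replicate 3. The activators CBP60G and WRKY70 had 44.6, 40.8 and 10.4 for CBP60G and 44.6, 40.7 and 19.1 for WRKY70, also low in replicate 3, and SARD1 had 14.2, 30.3 and 7.46 and was high in replicate 2. NPR1, the salicylic acid receptor, was steady with 22.7, 21.9 and 19.99 FPKM. Of 18 genes at 5 FPKM or above, 14 were past 2-fold and 10 of these were low in replicate 1, beside 8.22% and 2.22% of all genes tested. Without replicate 1 there were 4 past 2-fold, and without replicate 2 there were 9, beside 2.01% and 6.53% of all genes.

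Further genes of the 20 most variable were low in replicate 1 as well. TAT3, a tyrosine aminotransferase induced by jasmonate, had 4.11, 27.0 and 72.9 FPKM, and AT2G38240, an oxygenase, 0.33, 8.78 and 14.6. PCR1, a membrane protein of cadmium resistance, had 0.84, 27.3 and 9.91 FPKM and CHI, a chitinase, 1.32, 19.4 and 13.9. PDF1.2, a defensin used as a marker of jasmonate with ethylene, stood apart from these by being high in replicate 3, with 1.73, 5.61 and 16.7 FPKM, while the jasmonate synthesis genes LOX2 and AOS had 100.1, 91.9 and 162 for LOX2 and 112, 85.5 and 137 for AOS and stayed within 2-fold.

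Proteins with a TIR domain include many immune receptors that sense pathogen effectors inside the cell. Of the 16 families counted, all drawn up after values were seen, theirs had the largest share past 2-fold. Of the 40 with at least 5 FPKM, 25 (62.5%) were past it and 18 of these were low in replicate 3, beside 8.22% and 2.25% of all genes tested. AT1G72910 and AT1G72920 were the most extreme, with 65.4, 5.20 and 0.99 for AT1G72910 and 68.5, 15.1 and 2.27 for AT1G72920. AT1G66090 had 62.4, 56.8 and 22.9 and AT5G41740 52.2, 42.3 and 13.1 FPKM, while SNC1, a known regulator of immunity in this family, had 51.7, 57.2 and 29.6 and stayed under 2-fold. Many of these genes sit in clusters of related copies, so their single levels are uncertain. Without replicate 3 the count was 5, against 18 without replicate 1 and 19 without replicate 2. The shares of all genes were then 3.36%, 2.01% and 6.53%.

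**Figure D5:**
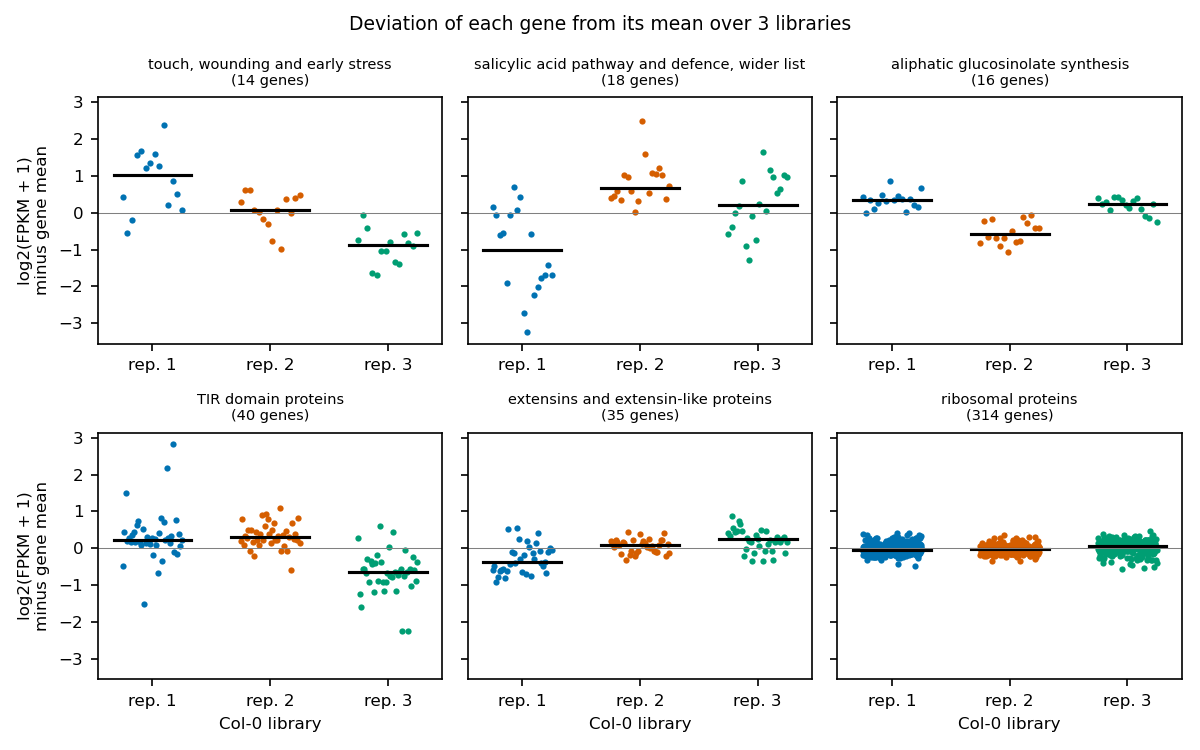
Each gene's log2(FPKM + 1) minus its mean over the 3 Col-0 libraries, for 6 gene groups with at least 5 FPKM, with a black bar at the median of each library. Early stress genes have medians of 1.04, 0.07 and -0.87 in replicates 1, 2 and 3, the wider salicylic acid list has 0.66 and 0.21 in replicates 2 and 3 and lies far below 0 in replicate 1, and ribosomal proteins stay near 0.

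Glucosinolates are defence compounds of the cabbage order, made from methionine (aliphatic) or tryptophan (indolic). Genes of the aliphatic branch were low in replicate 2. MAM1, which elongates the methionine chain, had 75.7, 31.1 and 75.2 FPKM, CYP79F1, which opens the core pathway, 28.9, 6.95 and 18.1 and CYP83A1, which follows it, 47.8, 19.4 and 43.3. IPMI1 and IPMI2, isomerase subunits of chain elongation, had 21.6, 7.55 and 20.5 for IPMI1 and 48.8, 24.7 and 54.3 for IPMI2, and IMD1, the dehydrogenase of that cycle, 89.5, 44.4 and 91.1. In each of these 6 genes replicate 2 was lowest, and replicates 1 and 3 were nearer to each other than to it. GSTU20, a glutathione transferase of the list, was highest with 180.0, 82.0 and 185 FPKM and MYB76, a further activator, lowest with 0.89, 0 and 0.18. MYB28, the main activator of the branch, had 29.4, 13.2 and 14.9 FPKM and MYB29 3.85, 0.64 and 1.70.

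Of 16 aliphatic genes at 5 FPKM or above, 8 were past 2-fold, 7 of them low in replicate 2, a pattern found in 0.214% of all genes tested, and 15 of 16 were lowest there, beside 25.1%. Without replicate 2 none of the 16 was past 2-fold, beside 6.53% of all genes. This list too was drawn up after values were seen. The indolic genes of the core pathway did not share the dip. CYP79B2, CYP79B3 and CYP83B1, which take tryptophan into that pathway, had 92.4, 98.8 and 103 for CYP79B2, 68.5, 65.9 and 84.3 for CYP79B3 and 141, 190.0 and 190.0 for CYP83B1. SUR1, the lyase used by both branches, had 69.8, 63.5 and 74.9. GSTF9 led the indolic list with 811, 703 and 820.1 and MYB122 ended it with 0.58, 0.81 and 0.99. The 4 of 12 indolic genes past 2-fold, beside 8.22% of all genes, were the activator MYB51 with 103, 75.5 and 17.3 FPKM, CYP81F2 with 29.2, 64.8 and 36.5, and the methyltransferases IGMT1 and IGMT2 with 34.1, 46.1 and 22.2 for IGMT1 and 11.5, 21.6 and 7.60 for IGMT2, all tailoring or regulatory genes. Without replicate 2 or without replicate 3 that count was 1, beside 6.53% and 3.36% of all genes. The wall-loosening EXPA1 with 55.7, 19.6 and 40.4 FPKM and the iron transporter IRT1 with 7.60, 2.52 and 8.33 were also low in replicate 2.

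Many cell wall genes past 2-fold were low in replicate 1. The families here too were drawn up after values were seen. Of extensins and extensin-like proteins, hydroxyproline-rich proteins cross-linked into the wall, 12 of 35 were past 2-fold and 11 of these were low in replicate 1, beside 8.22% and 2.22% of all genes tested. EXT4 had 174, 342 and 607 FPKM, EXT10 7.06, 14.9 and 21.3, and EXT3, the member high in replicate 3, 309, 411 and 768. Of xyloglucan endotransglucosylases matched by product name, which cut and rejoin wall hemicellulose, 8 of 20 were past it, again beside 8.22%. XTR6 stood at 83.5, 362 and 241, XTH18 at 306, 941 and 745 and XTH24 at 260.3, 597 and 764 FPKM. The match by name missed TCH4, which was past 2-fold and highest in replicate 2 with 913, 1618 and 789. XTH6 was instead low in replicate 2 with 49.2, 13.8 and 33.1. The root hair genes PRP3 with 38.9, 70.5 and 83.5, the expansin EXPA7 with 3.75, 9.27 and 7.78 and LRX1, an extensin-like wall protein, with 3.97, 9.20 and 8.38 FPKM were low in replicate 1 as well, 3 of 4 at that level beside 8.22% past 2-fold and 2.22% low in replicate 1 of all genes, whereas EXPA18, an expansin of the same cells, had 11.0, 10.5 and 13.4. Without replicate 1 the counts past 2-fold were 0 for extensins, 2 for xyloglucan genes and 0 for root hair genes. Without replicate 2 they were 10, 5 and 1, and without replicate 3 they were 3, 5 and 2. Of all genes, 2.01%, 6.53% and 3.36% were over 2-fold without replicates 1, 2 and 3. Extensins are repetitive near copies, and how reads were assigned to them is not given in the sources used here.

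Clock genes cycle over the day, and the labels do not give the hour of harvest. The morning genes CCA1 and LHY had 20.06, 14.6 and 9.36 for CCA1 and 30.4, 25.6 and 22.7 for LHY, and the evening genes TOC1, GI and PCL1 (LUX) had 60.3, 70.3 and 55.2 for TOC1, 21.8, 18.5 and 21.6 for GI and 38.2, 44.1 and 60.4 for PCL1. PRR9, PRR7 and PRR5, which peak in turn through the day, had 1.36, 0.27 and 0.65 for PRR9, 27.6, 18.8 and 13.7 for PRR7 and 18.98, 17.5 and 23.3 for PRR5, and the evening complex genes ELF3 and ELF4 19.8, 18.7 and 17.5 for ELF3 and 50.7, 37.3 and 27.2 for ELF4. RVE8 and RVE1, relatives of CCA1, had 16.5, 10.7 and 7.61 for RVE8 and 14.0, 5.89 and 9.48 for RVE1, AT5G64170 (LNK1) had 16.3, 9.19 and 5.75 and AT3G54500 (LNK2) 56.8, 46.3 and 35.3. FKF1, a blue light receptor of flowering time, had 11.0, 10.5 and 11.7, its target CDF1 3.37, 1.23 and 1.74 and the flowering activator CO 1.55, 2.43 and 2.91. GRP7 and CCR1 (GRP8), RNA-binding proteins under clock control, were the highest of the list with 823, 871 and 932 for GRP7 and 279, 305 and 301 for CCR1. CCA1, RVE8, RVE1 and AT5G64170 were past 2-fold, 4 of 16 beside 8.22% of all genes, against 2 of 16 after scaling by the median of ratios. The count was 0 without replicate 1 and 1 without replicate 3, beside 2.01% and 3.36% of all genes.

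In the list of dark and sugar starvation, 2 of 4 genes were past 2-fold, beside 8.22% of all genes, and both were low in replicate 1. ASN1, an asparagine synthetase induced when sugar runs short, had 18.3, 60.2 and 63.1 FPKM and DIN10, a raffinose synthase-like enzyme, 282, 631 and 670.2, with replicates 2 and 3 close together. SEN1 and AKINBETA1 of the same list had 50.4, 79.4 and 53.4 for SEN1 and 37.99, 46.5 and 59.4 for AKINBETA1 and stayed within 2-fold. Without replicate 1 the count was 0, beside 2.01% of all genes.

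Of 16 genes used as references in RT-qPCR, 1 was past 2-fold, a share of 6.25% and near the 8.22% of all genes. It was UBQ10, a polyubiquitin gene, with 633, 1014 and 1475 FPKM. The count was 0 without replicate 1 or without replicate 3, beside 2.01% and 3.36% of all genes. PP2AA3, a phosphatase subunit, had 33.6, 35.6 and 33.9 FPKM, PEX4 (UBC21) 23.8, 24.7 and 23.4 and AT4G34270 (TIP41L) 28.1, 28.5 and 25.7. CBP20 had 29.0, 26.0 and 26.7, YLS8 108, 112 and 99.8, UBC9 111, 131 and 125 and AT2G28390 (SAND) 19.6, 19.2 and 22.4. Among actins ACT2 had 343, 419 and 419, ACT7 152, 156 and 213 and ACT8 148, 167 and 217 FPKM. GAPC1 and GAPC2, cytosolic dehydrogenases of glycolysis, had 428, 411 and 605 for GAPC1 and 872, 684 and 793 for GAPC2. UBQ5, the elongation factor AT5G60390 and EIF4A1 had 389, 396 and 544 for UBQ5, 948, 1118 and 1184 for AT5G60390 and 274, 335 and 375 for EIF4A1.

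Among the 2690 genes whose mean reached 50 FPKM, AT1G67700, annotated as a multidrug resistance protein, had the smallest SD of log2(FPKM + 1), with 286, 287 and 288 FPKM. AVP1, the vacuolar proton pyrophosphatase, had 197, 197 and 195, PYL1, an abscisic acid receptor, 60.1, 59.8 and 59.5 and VDAC3, a channel of the outer mitochondrial membrane, 113, 112 and 112. OASA1, the cytosolic enzyme that makes cysteine, had 329, 327 and 331 FPKM, and GAUT1, a pectin synthase, 66.3, 65.7 and 65.8. The others of the 10 steadiest were AT1G04420 with 95.4, 94.8 and 95.2, p24beta2 with 53.6, 53.4 and 53.7, AT5G18600 with 96.5, 96.2 and 95.6 and AT3G15690 with 56.8, 57.1 and 57.5. In each of these the libraries differed by less than counting error at the estimated depth would give on average, and 12.1% of the genes at 5 FPKM or above had an SD below that error, so their order among themselves carries no weight.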

How the data were processed

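RNA-seq values of 3 Col-0 libraries were used. The authors deposited 1 table of FPKM values with 2 decimals, per the file headers. The submitters' processing notes list Bowtie2 and HISAT and give neither a role nor a version. Not given in the sources used here were the genome build, the counting program, the use of strand and the treatment of reads with several matches, so overlapping and antisense genes cannot be told apart. Gene numbers were matched to TAIR10.1 for names and positions, 22798 of 22951, and 153 stayed unmatched. Depth was estimated from 1645 genes of 500 to 1800 nt, where 89.0% to 92.5% of values of up to 5 reads were whole within 0.1 read. Floors and counting errors derived from it cover counting error only.

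From the deposited FPKM, the mean, SD and rank of each gene were computed, and the share of the summed FPKM that a group held. Spread was the SD of log2(FPKM + 1) and the ratio of highest to lowest library on FPKM + 1, which understates the change of low genes, for genes whose mean reached 5 FPKM. With 1 group of 3 libraries no test was run, and no p-value is given. Python 3.11.15, pandas 2.3.3 and numpy 2.4.6 were used. The counting of genes past 2-fold was also run on simulated libraries with independent noise for each gene. Such libraries lack shifts shared by many genes, so that run lends no support to the counts given here.

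The members and lists were chosen with earlier results of these data known. There were 43 lists with 442 loci, 437 of them in the table, and 16 families taken by product name. Members whose product is worded otherwise are missing from the families. The aliphatic, indolic and wider salicylic acid lists and the families were drawn up after values were seen. Named genes are the 20 with the highest mean, the highest and lowest member of each list (1 of these is not reported here), the 20 most variable at 5 FPKM or above and the first 10 of these carried by each library, the 10 steadiest at 50 FPKM or above, all clock, early stress and reference genes, LCR and BIN2. Others were named as pathway members after their values were seen. Alternatives covered the pseudocount, the minimum level, the scaling (median of ratios, quantiles, TPM) and leaving out each library. The sum without ribosomal DNA-like and organelle-like genes was added after seeing the data.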

Additional observations from a re-analysis of the deposited data

How the results depend on the processing

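The 20 highest genes shared 20 members after scaling by the median of ratios, and 19, 18 and 20 without replicate 1, 2 and 3, and 57 to 59 genes had a mean of at least 1000 FPKM. Photosynthesis genes held 16.3% to 17.45% of the sum when a library was left out. The count of 1112 genes past 2-fold was 1711 with a minimum mean of 1 FPKM, 446 with 20 FPKM, 1842 without a filter, and 259 to 898 when a library was left out. Between replicates 1 and 2 the filters of 1, 20 and 0 FPKM gave 695, 196 and 767 genes, between replicates 1 and 3 they gave 1339, 344 and 1405, and between replicates 2 and 3 417, 132 and 467. These counts follow the number of genes tested. Quantile scaling put the extreme value in replicate 1 for 61.8% and in replicate 3 for 28.9% of genes past 2-fold, and a minimum mean of 20 FPKM put it in replicate 2 for 10.5%, where the cause was not tested. Genes with an SD over 3 times the running median were 861, against 1143 to 1500 with a library left out, which leaves 2 values per gene. The other values of this kind, 52 of them, stayed within a factor of 1.5, 1 SD or the 95% interval. That interval is a binomial one on the share of genes past 2-fold, and genes are not independent replicates. Values for single lists, families and genes stayed within these bounds in 294 cases and moved past them in 59. The sum without the organelle genomes was not run, since no gene of those genomes was listed. No paired analysis was possible because only 1 group was described. Values under 0.3 FPKM rest on about 3 reads or fewer for a transcript of 1 kb, and the number of reads grows with transcript length.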

Other observations

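Nuclear genes whose letters match the mitochondrial genome were mostly higher in replicate 2, as AT2G01021 was. At least 50% of the 31-base words of 59 genes lie in the mitochondrial genome, and 20 of them had a mean of at least 1 FPKM. Of these 20, 17 were highest in replicate 2, beside 25% of all genes tested, which had a mean of at least 5 FPKM. All 20 lie on chromosome 2 between 3249396 and 3503476 (TAIR10.1), and most had a mean below 5 FPKM. Where letters match, reads of mitochondrial RNA cannot be told apart from reads of these genes, so they are not 20 separate observations. AT2G07706 had 87.2, 359 and 129 FPKM and AT2G07698, annotated as an alpha subunit of the ATP synthase, 4.71, 20.3 and 5.00. Together the 59 genes made up 0.0329%, 0.0951% and 0.0414% of the summed FPKM. The antenna list was lowest in that library as well, and with the mitochondrial and ribosomal matches left out of the sum it held 5.55%, 4.34% and 5.19%.

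A run of TIR genes on chromosome 1 held both variable and steadier members. AT1G72910, AT1G72920 and AT1G72940 lie between 27435306 and 27443859 (TAIR10.1) and had 65.4, 5.20 and 0.99 FPKM for AT1G72910, 68.5, 15.1 and 2.27 FPKM for AT1G72920 and 63.1, 23.1 and 6.59 FPKM for AT1G72940. TIR itself (AT1G72930), which lies among them by locus number, had 215, 218 and 142 FPKM and stayed within 2-fold. AT1G25150, an F-box gene listed at 0, 17.1 and 0 FPKM, has the same coding letters as AT1G25055 and AT1G24800 (100% of 1302 bases), and how reads were divided among these copies is not given in the sources used here. These genes were picked out after their values were seen, apart from AT1G72910, AT1G72920 and AT1G25150, which were among the 20 most variable. A gene number with no match in TAIR10.1, and so with no name here, was also among these 20, with 16.5, 0.56 and 10.2 FPKM.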
